A study of Mus musculus with 6 samples.

Results

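The immediate-early and heat shock genes studied here are a set of 36 genes named by symbol, out of 30406 genes listed in all 3 pools of a mouse brain CITE-seq study. All 36 were found in the gene lists and all 36 passed the filter on low counts in each comparison below. They fall into 15 early transcription factors, 10 other early response genes, 6 heat shock genes and 5 NF-kB targets. CITE-seq reads the transcripts of each cell together with surface proteins, which are marked by antibodies that carry DNA tags. The cells were CD11b+ cells, that is mostly myeloid cells, from the brains of C57BL/6 mice aged 12 weeks. Each of the 3 pools combined 6 samples marked with hashtag antibodies, which per the labels were a female and a male with a tumor at day 14, a female and a male with a tumor at day 21, and a female and a male control without tumor. The tumor was an implanted glioma, tumor-bearing hemispheres were taken from tumor animals and whole brains from controls, and the tissue was dissociated with enzymes after perfusion with cold saline. The feature names call the hashtags only by a number from 1 to 6, so the sex, tumor and day of a hashed sample are not assigned here, and every comparison lies within hashed samples or between hashtag numbers and pools. The labels do not say which animals made up a hashed sample, so the p-values measure the spread over these 18 hashed samples, which may be partly technical.

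Immediate-early genes are switched on within minutes of a stimulus without new protein synthesis, through factors already present in the cell such as serum response factor and CREB. Many encode transcription factors of the AP-1 and EGR families, and others encode phosphatases and RNA-binding proteins that shut the same signals off. Heat shock genes encode chaperones that refold damaged proteins and are driven by heat shock factors, while NF-kB targets include both inflammatory messengers and the inhibitors that end NF-kB signalling. In myeloid cells these programs are known to respond to tissue injury and to the preparation of cells for sequencing, as well as to signals in the living tissue.

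The stretches of 250 bases that end at the annotated transcription start are shown for 7 members as examples. Among them are Hspa1a and Hspa1b, a heat shock pair whose stretches can hardly be told apart. The sequences are from RefSeq on GRCm38.p6 and run 5′ to 3′ on the strand of the gene. Capitals mark matches on either strand to 8 motifs: the AP-1 site TGANTCA, the cAMP response element TGACGTCA, the EGR site GCGNGGGCG, the heat shock element GAANNTTC, the TATA box TATAAA, the CCAAT box CCAAT, and the CArG box and the kappaB site by their usual consensus. Matches of different motifs do not overlap in the windows shown.
Fos, an AP-1 subunit, chr12:85473640-85473889, plus strand, with a kappaB match and a TATA box: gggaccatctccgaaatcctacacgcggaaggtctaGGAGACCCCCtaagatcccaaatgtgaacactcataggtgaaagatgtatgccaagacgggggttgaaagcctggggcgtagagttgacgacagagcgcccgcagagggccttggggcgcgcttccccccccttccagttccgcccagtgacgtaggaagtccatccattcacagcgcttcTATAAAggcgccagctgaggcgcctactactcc
Fosb, an AP-1 subunit, chr7:19310046-19310295, minus strand, with a kappaB match and an EGR match: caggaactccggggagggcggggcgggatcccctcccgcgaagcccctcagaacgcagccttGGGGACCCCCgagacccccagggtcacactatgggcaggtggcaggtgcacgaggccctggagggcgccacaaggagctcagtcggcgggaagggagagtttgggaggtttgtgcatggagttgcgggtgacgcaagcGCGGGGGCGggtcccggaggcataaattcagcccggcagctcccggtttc
Jun, an AP-1 subunit, chr4:95052223-95052472, minus strand, with a heat shock element and a CCAAT box: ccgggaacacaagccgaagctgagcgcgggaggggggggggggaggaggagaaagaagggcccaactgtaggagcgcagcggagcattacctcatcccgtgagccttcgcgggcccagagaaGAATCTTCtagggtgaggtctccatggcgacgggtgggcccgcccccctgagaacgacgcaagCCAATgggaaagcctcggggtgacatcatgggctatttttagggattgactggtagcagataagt
Dusp1, a phosphatase of MAP kinases, chr17:26508473-26508722, minus strand, with a cAMP response element: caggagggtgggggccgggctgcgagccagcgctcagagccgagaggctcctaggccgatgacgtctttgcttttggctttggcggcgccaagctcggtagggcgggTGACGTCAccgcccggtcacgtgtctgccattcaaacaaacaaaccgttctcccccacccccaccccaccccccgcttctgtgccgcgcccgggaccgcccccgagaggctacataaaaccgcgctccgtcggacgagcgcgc
Hspa1a, an inducible Hsp70 chaperone, chr17:34972157-34972406, minus strand, with a heat shock element and a CCAAT box: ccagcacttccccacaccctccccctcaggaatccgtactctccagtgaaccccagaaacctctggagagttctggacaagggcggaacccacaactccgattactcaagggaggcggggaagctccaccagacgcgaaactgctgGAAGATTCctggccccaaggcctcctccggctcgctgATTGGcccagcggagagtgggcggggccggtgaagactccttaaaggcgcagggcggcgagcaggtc
Hspa1b, its near-identical neighbour, chr17:34959239-34959488, minus strand, with the same elements: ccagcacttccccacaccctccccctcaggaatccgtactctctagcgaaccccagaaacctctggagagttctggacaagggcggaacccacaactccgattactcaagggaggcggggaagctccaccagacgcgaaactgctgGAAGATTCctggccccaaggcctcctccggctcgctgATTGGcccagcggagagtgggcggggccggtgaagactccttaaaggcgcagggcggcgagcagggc
Nfkbia, the inhibitor IkB-alpha, chr12:55492648-55492897, minus strand, with a kappaB match: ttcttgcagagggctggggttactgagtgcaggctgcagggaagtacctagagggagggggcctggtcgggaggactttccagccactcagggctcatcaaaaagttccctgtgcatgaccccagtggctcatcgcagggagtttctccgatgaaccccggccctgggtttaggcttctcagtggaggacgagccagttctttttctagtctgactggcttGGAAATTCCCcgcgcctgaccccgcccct

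The windows of Hspa1a and Hspa1b differed at 3 of 250 positions. These windows lie upstream of the transcripts, which were not compared with each other. The levels of these 2 genes are uncertain, because reads from either copy may be split or dropped in counting, which was not tested. Windows were found for 29 members, 38 windows in all. The 7 members without a window were Egr1, Egr3, Ier2, Hspa8, Hsp90aa1, Nfkbiz and Cd83. A member was counted where any of its windows matched, while the share over all windows counts each window once, which can raise the member share. The heat shock element was found in 3 of 4 heat shock genes with a window, against 6.69% of all 32851 windows. These were Hspe1 and the near-identical pair Hspa1a and Hspa1b. The kappaB site was found in 2 of 3 NF-kB targets and 4 of 13 early transcription factors with a window, against 3.90% of all windows. The EGR site was found in 6 of 13 early transcription factors and 4 of 9 other early response genes, against 4.70% of all windows. The cAMP response element was found in 4 of the 29 members, namely Btg2, Maff, Rcan1 and Dusp1, against 1.55% of all windows. The AP-1 site was found in 2 of 29 members against 6.75%, the CArG box in 2 against 1.47%, the TATA box in 3 against 12.4% and the CCAAT box in 12 against 33.8%. These matches describe the letters of the windows only.

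The mRNA libraries held from 71510276 to 107880924 UMIs, that is counted molecules, in 11010 to 13925 barcodes. A barcode was given to a hashtag where that hashtag made up at least 80% of its hashtag UMIs, which assigned 22145 of 36214 filtered barcodes but only 1888 of 11760 in pool 3. The pools shared 31 to 51 barcodes pairwise. Clusters were formed without the 36 members and named from marker genes, giving 9584 microglia-like cells, which match the macrophages that live in brain tissue, 3990 monocyte-like and 3873 macrophage-like cells. The last 2 classes are jointly called infiltrating cells here. The summed level of 12 microglia markers was 4.50 to 13.9 UMIs per 10000 in infiltrating cells and 148 to 223 in microglia-like cells, without overlap. The summed level of 10 monocyte markers was 26.6 to 116 in infiltrating cells and 1.04 to 2.66 in microglia-like cells. The median mitochondrial share per hashed sample was 0.9% to 2.86%. Levels below are UMIs per 10000 UMIs of the summed cells of a hashed sample. The chemistry reads the 3′ end, so a transcript gives the same count whatever its length. Fold changes are after TMM scaling, which corrects for differences in composition, and levels are without it. Counts of samples that share a direction are also after TMM scaling.

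The 36 members together were lower in infiltrating than in microglia-like cells of the same brains, although some of them were higher. In the 12 hashed samples with at least 20 cells of both kinds, 22 members fell, 8 rose and 6 did not pass the test. Of all 11201 genes tested, 40.0% fell and 36.1% rose, so the share of members that rose was below the background and the share that fell (61.1%) above it. The median log2 fold change was -0.56 for members and -0.06 for all genes tested. The summed member level was lowest at 143, median 176 and highest at 209 in infiltrating cells of the 12 samples. In microglia-like cells of the same 12 samples it was lowest at 248 and highest at 473. Over all 18 samples of microglia-like cells, some without an infiltrating arm, the median was 310 and the highest 512. Fewer transcripts per cell and fewer expressing cells cannot be told apart in such sums.

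**Figure D1:**
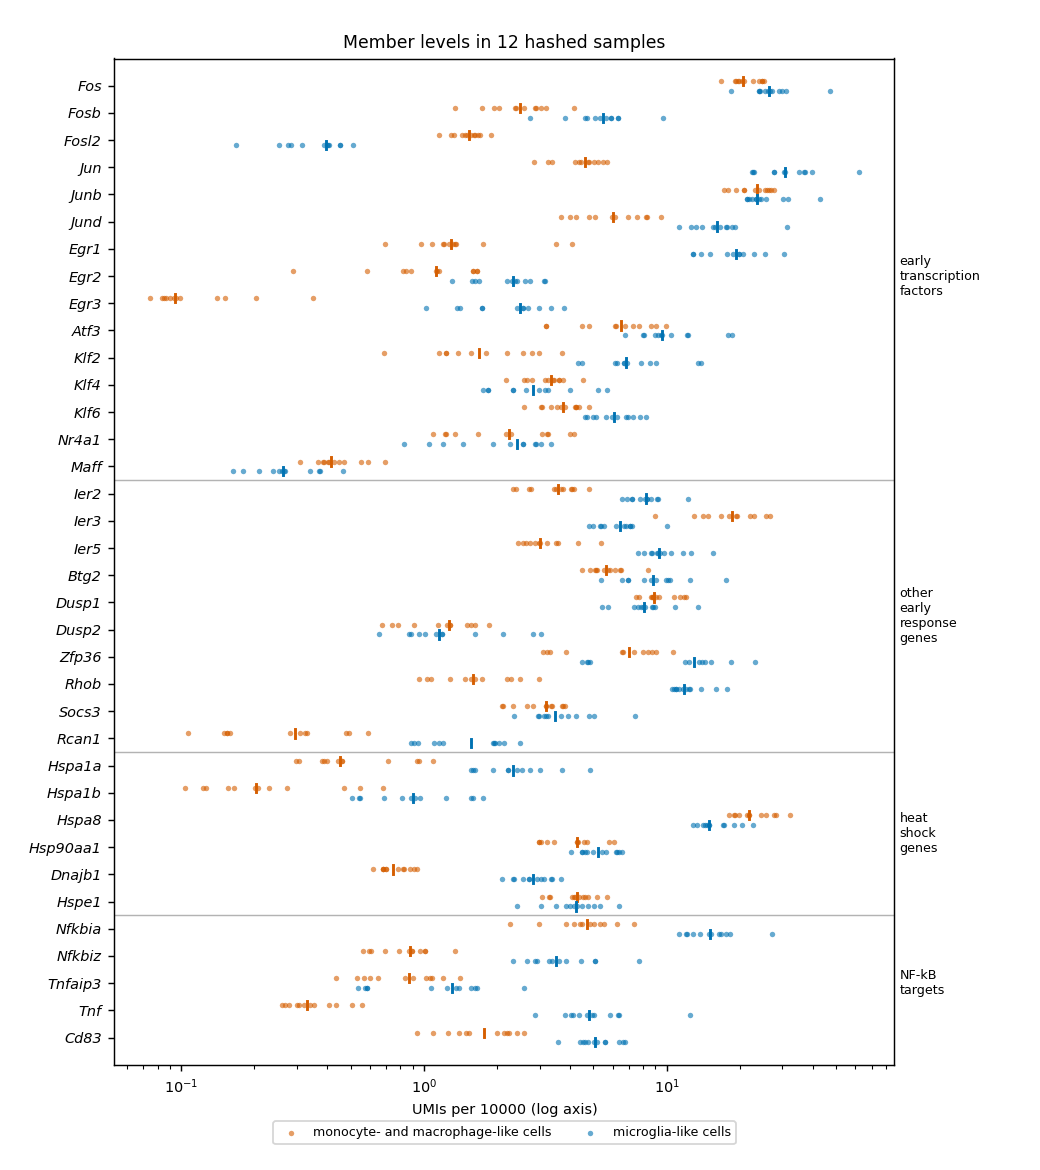
Level of each member in UMIs per 10000 on a log axis in the infiltrating (monocyte- and macrophage-like) and the microglia-like cells of 12 hashed samples, with a point per sample, a bar at the median, and genes in order of their role group. Egr3, Egr1, Jun, Rhob and Tnf lie apart in the 2 kinds of cells, while Fos, Junb and Hsp90aa1 overlap.

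Among the early transcription factors 9 of 15 fell, 4 rose and 2 did not pass. The largest fall was in Egr3, a zinc-finger factor induced together with Egr1 and Egr2. Egr3 was lowest at 0.0744, median 0.0940 and highest at 0.349 in infiltrating cells, against 1.02, 2.48 and 3.77 in microglia-like cells of the same 12 samples. The groups did not overlap, and Egr3 was lower in 12 of 12 samples by 3.96 ± 0.14 on the log2 scale (SE, adjusted p = 5.2e-16 in edgeR's quasi-likelihood test), or 15.6-fold. Egr1, a widely used marker of recent stimulation, was lowest at 0.693, median 1.30 and highest at 4.06 in infiltrating cells, against 12.8, 19.3 and 30.5 in microglia-like cells. It was lower in 12 of 12 samples, without overlap, with a log2 fold change of -3.34 ± 0.18 (adjusted p = 4.9e-13). Egr2 fell much less, with a log2 fold change of -0.68.

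The AP-1 subunits did not move together. Jun was lowest at 2.84, median 4.60 and highest at 5.70 in infiltrating cells, against 22.4, 30.7 and 62.0 in microglia-like cells, again without overlap. Its log2 fold change was -2.52 ± 0.11 (adjusted p = 1.2e-14), and its relatives Jund and Fosb fell with -1.12 and -0.76. Fos, the classic partner of Jun, was lowest at 16.7, median 20.7 and highest at 25.2 in infiltrating cells, against 18.4, 26.4 and 46.9 in microglia-like cells. The groups overlapped, and the log2 fold change of Fos after TMM scaling was -0.01 ± 0.09 (adjusted p = 0.94). Junb had a log2 fold change of 0.17 (adjusted p = 0.17).

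Fosl2, an AP-1 subunit of slower kinetics, went the other way. It was lowest at 1.16, median 1.54 and highest at 1.89 in infiltrating cells, against 0.168, 0.395 and 0.509 in microglia-like cells, and was higher in 12 of 12 samples by 2.55 ± 0.12 on the log2 scale (adjusted p = 9.2e-14). The small Maf factor Maff rose with a log2 fold change of 1.07 and was higher in 12 of 12 samples, although the 2 groups of samples overlapped. Klf4 and the orphan nuclear receptor Nr4a1 rose by 0.51 and 0.47, where Nr4a1 had unscaled medians of 2.23 in infiltrating and 2.41 in microglia-like cells. Klf2, which holds myeloid cells in a quiet state, fell with -1.74, while Klf6 and the stress factor Atf3 fell with -0.39 and -0.44.

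Among the other early response genes 6 of 10 fell, 2 rose and 2 did not pass. Rhob, a small GTPase of endosomes, was lowest at 0.953, median 1.59 and highest at 2.99 in infiltrating cells, against 10.5, 11.9 and 17.8 in microglia-like cells. It was lower in 12 of 12 samples, without overlap, with a log2 fold change of -2.59 ± 0.11 (adjusted p = 9.5e-15). Rcan1, an inhibitor of the phosphatase calcineurin, was lowest at 0.107, median 0.296 and highest at 0.588 in infiltrating cells, against 0.883, 1.57 and 2.50 in microglia-like cells, with a log2 fold change of -2.19 ± 0.17 (adjusted p = 1.7e-10). Both genes separated the cell kinds in every sample.

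Ier3, an early gene that protects against cell death, was the most abundant of this group in infiltrating cells and rose most. It was lowest at 8.97, median 18.6 and highest at 26.6 in infiltrating cells, against 4.80, 6.43 and 10.0 in microglia-like cells. It was higher in 12 of 12 samples, with a log2 fold change of 1.85 ± 0.13 (adjusted p = 7.3e-11), although the ranges met. Dusp1 rose with 0.55. Ier5 fell with -1.29, Ier2 with -0.93, the mRNA decay factor Zfp36 with -0.42 and the antiproliferative gene Btg2 with -0.30. Dusp2, another MAP kinase phosphatase, and the cytokine signalling inhibitor Socs3 had log2 fold changes of 0.21 and 0.03 and did not pass.

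The heat shock genes did not move together, with 3 of 6 lower, 2 higher and 1 that did not pass. The inducible Hsp70 gene Hspa1a was lowest at 0.298, median 0.451 and highest at 1.09 in infiltrating cells, against 1.57, 2.33 and 4.83 in microglia-like cells. It was lower in 12 of 12 samples, without overlap, with a log2 fold change of -1.87 ± 0.11 (adjusted p = 3.1e-12). Its copy Hspa1b had -1.84 ± 0.17 (adjusted p = 3.0e-09) and was lower in 11 of 12 samples. Dnajb1, the Hsp40 cochaperone of Hsp70, was lowest at 0.618, median 0.744 and highest at 0.938 in infiltrating cells, against 2.10, 2.82 and 3.67 in microglia-like cells, with a log2 fold change of -1.54 ± 0.07 (adjusted p = 2.1e-14).

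Other chaperones did not share this fall. Hspa8, the constitutive Hsp70, was lowest at 18.1, median 21.9 and highest at 32.3 in infiltrating cells, against 12.9, 14.9 and 22.8 in microglia-like cells. Hspa8 was higher in 12 of 12 samples although the ranges overlapped, with a log2 fold change of 0.85. The mitochondrial cochaperonin Hspe1 rose with 0.35, and Hsp90aa1, the inducible cytosolic Hsp90, had -0.03 (adjusted p = 0.74). The summed level of the 6 heat shock genes had a median of 32.1 in infiltrating cells of 12 samples and 31.9 in microglia-like cells of 18 samples. In the 12 samples with both kinds it ran from 27.0 to 45.5 in infiltrating and from 26.1 to 40.4 in microglia-like cells.

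Of the NF-kB targets 4 of 5 fell, where 40.0% of all genes tested did. Tnf, the inflammatory cytokine, was lowest at 0.261, median 0.331 and highest at 0.557 in infiltrating cells, against 2.86, 4.81 and 12.5 in microglia-like cells. Its log2 fold change was -3.52 ± 0.16, that is 11.4-fold lower in infiltrating cells (adjusted p = 4.6e-14). Nfkbia, which holds NF-kB in the cytoplasm, was lowest at 2.26, median 4.68 and highest at 7.31 in infiltrating cells, against 11.2, 15.1 and 27.3 in microglia-like cells, with -1.41 ± 0.13 (adjusted p = 2.5e-09). Nfkbiz, a nuclear cofactor of NF-kB, fell by 1.81 ± 0.13 on the log2 scale (adjusted p = 3.6e-11), and the surface protein gene Cd83 fell by 1.27. Tnfaip3, which encodes the inhibitor A20, had a log2 fold change of -0.08 and did not pass.

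Scaling decided several of the smaller differences. Scaling by library size in place of TMM moved the median of all genes by -0.36 on the log2 scale and turned the split of all calls from 4040 higher and 4480 lower into 2634 higher and 6389 lower. Under it Fos had -0.35 (adjusted p = 8.0e-04), Hsp90aa1 -0.38, Tnfaip3 -0.43 and Socs3 -0.31, all called lower, while Klf4 (0.16), Nr4a1 (0.13) and Hspe1 (0.01) were no longer called and Junb (-0.17) and Dusp2 (-0.14) changed sign without a call. Without pool 1 the calls of Klf4 (0.21), Nr4a1 (0.31) and Dusp1 (0.24) were lost, without pool 2 those of Btg2 and Hspe1 (0.23), and without pool 3 that of Btg2 (-0.05), where Junb (0.39) and Dusp2 (0.43) were called higher. Without pool 1 Fos (-0.25), Dusp2 (-0.29), Socs3 (-0.35) and Tnfaip3 (-0.41) were called lower. Of all genes tested 0.0625% depended on the pool in this difference, Dusp2 among them (0.94, -0.02 and -0.41 in pools 1 to 3). With counts summed per pool, where the microglia-like arm also holds cells under hashtags 1 and 2, Rcan1 had -1.32, Tnf -2.93 and Klf4 -0.08, and the fall of Egr2 was no longer called (-0.27, adjusted p = 0.22). Without the replicate block Atf3 (-0.43), Nr4a1 (0.44) and Zfp36 (-0.55) were no longer called, and Btg2 lost its call with HTODemux (-0.27) and with at least 50 cells (-0.22). Among the lists of other cell types, the macrophage markers summed to 39.3 to 102 in infiltrating cells and 1.76 to 20.3 in microglia-like cells, and the border macrophage markers to 0.437 to 3.41 and 0.577 to 1.73. Their part in the member differences was not tested.

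**Figure D2:**
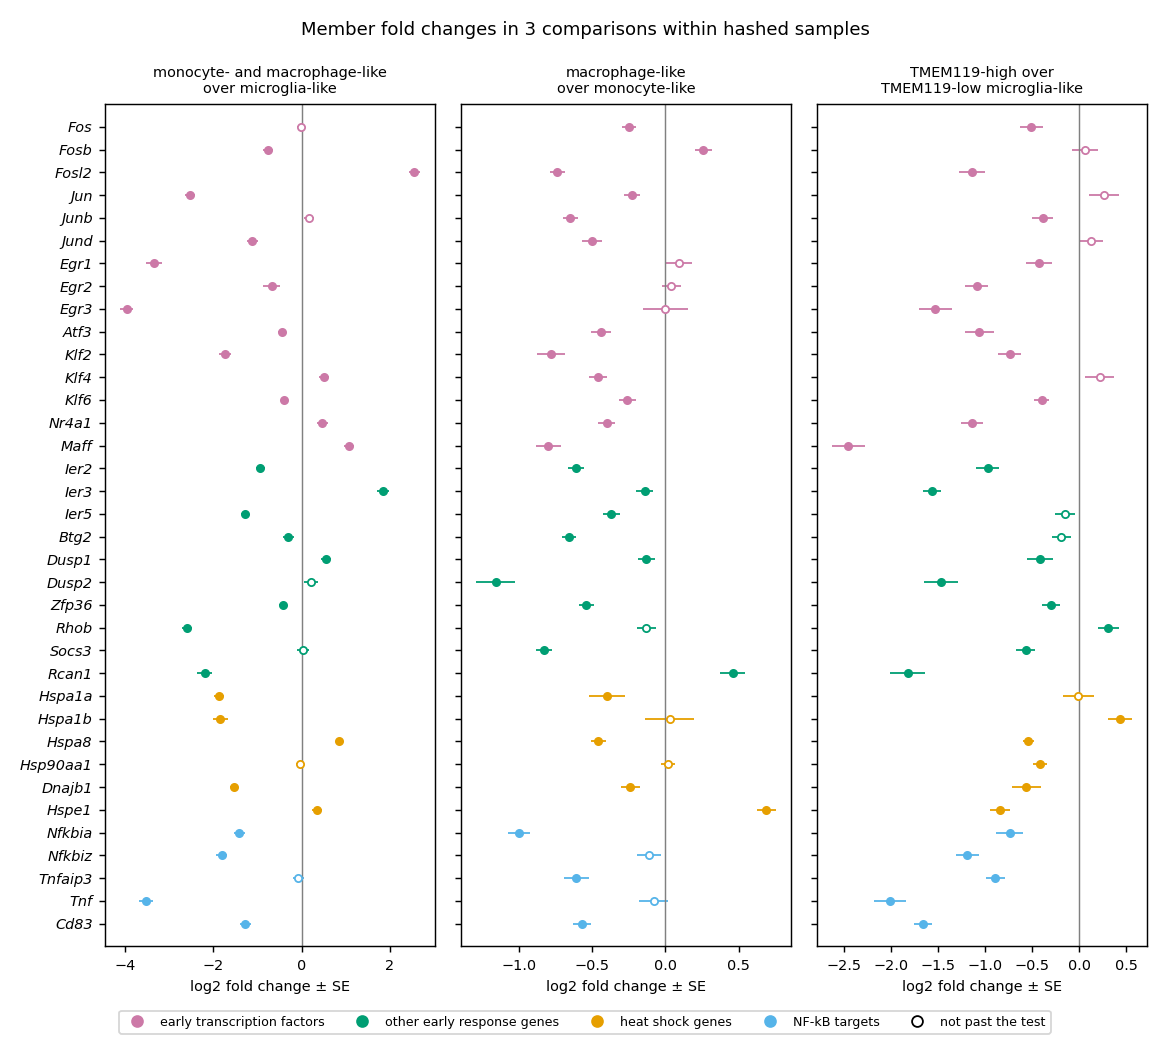
Log2 fold change of each member with its SE in the 3 comparisons made within hashed samples: infiltrating over microglia-like, macrophage-like over monocyte-like, and TMEM119-high over TMEM119-low microglia-like cells. Colours mark the role groups, open points did not pass the test, and each panel has its own axis. Points left of 0 are lower in the cells named before "over", and Egr3, Tnf and Egr1 lie farthest left in the comparison with microglia-like cells.

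Across all named classes the early transcription factors were highest in border macrophage-like cells, the macrophages of the meninges and vessels. Their summed level averaged 309 there over the 2 pools with enough cells, against 192 in microglia-like cells over 3 pools. The means of 309 and 192 thus cover different pools. Pools 1 and 2 held only 55 and 68 border macrophage-like, 21 and 41 neutrophil-like and 30 and 36 T-like cells. The summed level averaged 95.3 in patrolling monocyte-like cells, 88.2 in monocyte-like, 80.3 in neutrophil-like, 73.5 in dendritic cell-like, 70.7 in NK-like, 70.2 in macrophage-like, 64.2 in T-like and 59.2 in migratory dendritic cell-like cells. With 2 or 3 pools per class these neighbours in the order are given as values without a test. Border macrophage-like cells had Fos at 52.1, Jun at 66.7 and Hspa1a at 7.57, above the other classes given, and microglia-like cells came second with 31.0, 44.1 and 3.29. Cd83, a marker of mature dendritic cells, was instead highest in migratory dendritic cell-like cells at 11.4, and Ier3 was at 21.3 in border macrophage-like and 19.0 in monocyte-like cells. Among lymphoid classes Junb was at 25 in NK-like and 25.5 in T-like cells, while Fos was only 3.62 and 6.33 there.

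**Figure D3:**
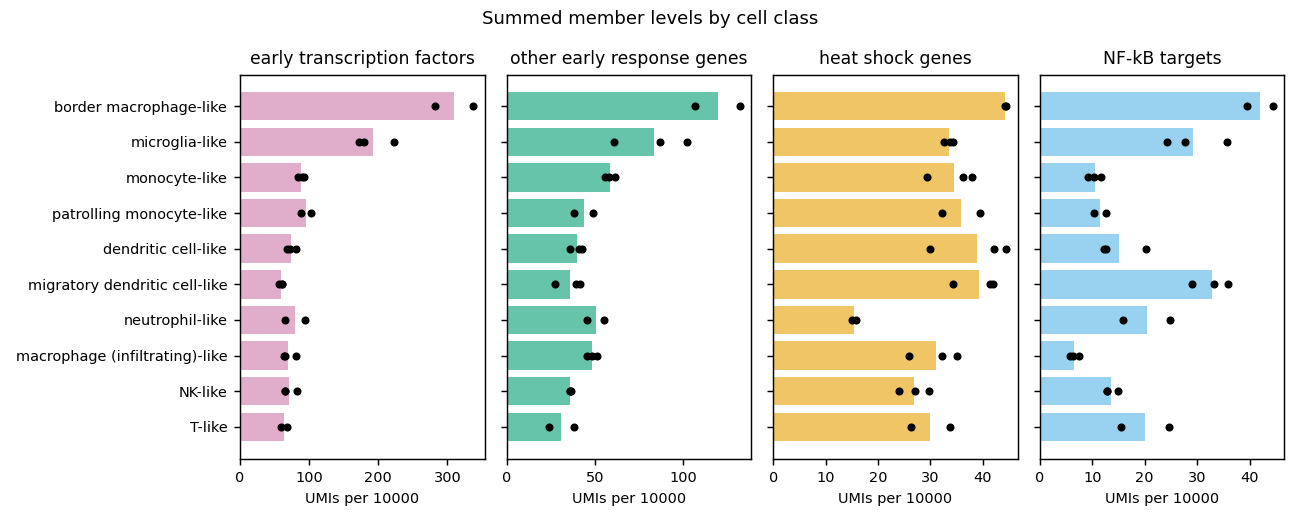
Summed level of each of the 4 role groups in UMIs per 10000 by named cell class, with a point per pool and a bar, drawn from 0, at the mean over the 2 or 3 pools. Border macrophage-like cells at 309 and microglia-like cells at 192 stand above the other classes for the early transcription factors.

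Within the infiltrating cells, the members were lower in macrophage-like than in monocyte-like cells. Over 11 hashed samples 25 of 36 members fell, 3 rose and 8 did not pass, where 26.7% of the 9977 genes tested fell and 28.5% rose. The median log2 fold change was -0.39 for members and 0.03 for all genes. Unlike the contrast with microglia-like cells most of these differences were small. Fosl2 was the member whose groups did not overlap, and the share of all genes tested without overlap was not counted.

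Early transcription factors fell in 11 of 15. Fosl2 was lowest at 0.920, median 1.32 and highest at 1.47 in macrophage-like cells, against 1.52, 1.89 and 2.55 in monocyte-like cells, and its log2 fold change was -0.74 ± 0.05 (adjusted p = 2.6e-11). Maff had -0.80 ± 0.08 (adjusted p = 1.8e-08) and Klf2 -0.78 ± 0.10 (adjusted p = 2.5e-07). Junb was lowest at 14.9, median 20.3 and highest at 23.5 in macrophage-like cells, against 22.7, 28.5 and 33.3 in monocyte-like cells, with a log2 fold change of -0.65. Jund, Klf4, Atf3, Nr4a1, Klf6 and Jun had log2 fold changes of -0.50, -0.46, -0.44, -0.40, -0.26 and -0.23, and all 6 fell. Fos fell by 0.25, while Fosb rose by 0.26 in 10 of 11 samples. The EGR factors Egr1, Egr2 and Egr3, all called lower in infiltrating than in microglia-like cells, had 0.09, 0.04 and -0.00 and did not pass.

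Of the other early response genes 8 of 10 fell. Dusp2 had the largest change, with 0.439, 0.763 and 1.66 as the lowest, median and highest level in macrophage-like cells, against 1.06, 1.37 and 3.35 in monocyte-like cells, and a log2 fold change of -1.16 ± 0.13 (adjusted p = 1.1e-07). Socs3 had -0.83 ± 0.05 (adjusted p = 6.8e-12) and Btg2 -0.66 ± 0.05 (adjusted p = 1.9e-11). Ier2, Zfp36, Ier5 and Dusp1 fell with -0.61, -0.54, -0.37 and -0.13. Rcan1 rose by 0.46, and Rhob had -0.13 and did not pass. Ier3 fell by 0.14, with levels of 12.7, 19.4 and 28.2 in macrophage-like cells and 14.3, 19.3 and 25 in monocyte-like cells that overlapped almost fully (adjusted p = 0.043).

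Among the heat shock genes Hspe1 rose in 11 of 11 samples, with 3.63, 5.45 and 6.19 in macrophage-like cells against 2.41, 2.86 and 4.49 in monocyte-like cells and a log2 fold change of 0.69 ± 0.06 (adjusted p = 2.9e-09). Hspa8 fell by 0.46 and Hspa1a by 0.40, and the levels of Hspa8 were 14.5, 19.2 and 28.0 in macrophage-like cells against 21.8, 23.6 and 36.7 in monocyte-like cells. Dnajb1 fell by 0.24, and Hspa1b and Hsp90aa1 did not pass. The mitochondrial Hspe1 and the cytosolic Hspa8 thus went in opposite directions. Among the NF-kB targets Nfkbia was lowest at 2, median 3.05 and highest at 5.67 in macrophage-like cells, against 3.36, 6.54 and 8.13 in monocyte-like cells, with -1.0 ± 0.07 (adjusted p = 4.8e-11). Tnfaip3 fell by 0.61 and Cd83 by 0.57, while Tnf had -0.08 and Nfkbiz -0.11 and did not pass. Without the replicate block of hashed samples 14 of 36 members were called in place of 28. Leaving out a pool cost the calls of Ier3 and Hspa1a (pool 1), Ier3 and Dusp1 (pool 2) and Dusp1 (pool 3). Library size scaling moved the median of all genes by 0.10 and gave 3707 higher and 2107 lower calls in place of 2845 and 2666. Under it Jun (-0.13, adjusted p = 0.054), Ier3 (-0.04), Dusp1 (-0.03) and Dnajb1 (-0.14) were no longer called, and Hsp90aa1 (0.13, adjusted p = 0.031) was called higher. Ier3 and Dusp1 were also not called by DESeq2.

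Microglia-like cells of different hashtag numbers differed in the members in 2 opposite ways. Over 18 hashed samples, with pool as a block, 15 of 36 members differed between hashtag numbers, against 21.3% of the 10395 genes tested. These were 8 early transcription factors, 4 other early response genes, the heat shock gene Hspe1 and the NF-kB targets Tnf and Cd83. Hashtags 3 to 6 of each pool also held 7.67% to 64.1% infiltrating cells, while hashtags 1 and 2 held at most 0.467%.

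Jun, Jund and Rhob had their highest means under hashtags 1 and 2. Jun averaged 53.8, 63.0, 35.9, 40.6, 27 and 28.5 under hashtags 1 to 6 over the 3 pools (adjusted p = 0.0013 for any difference, log2 span 1.06). Rhob averaged 20.4, 23.3, 14.1, 13.7, 11 and 11.4 (adjusted p = 0.001). Jund ran from 13.3 under hashtag 5 to 32.8 under hashtag 2 (adjusted p = 1.9e-04), and Klf4 and Ier5 also had their highest means under hashtag 2.

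Egr3, Tnf, Cd83, Rcan1 and Nr4a1 had their lowest means under hashtags 1 and 2. Egr3 averaged 0.704, 0.775, 1.37, 2.37, 2.58 and 2.86 under hashtags 1 to 6 (adjusted p = 4.6e-05, log2 span 2.21). Tnf averaged 1.83, 1.44, 4.53, 4.71, 5.19 and 7.18 (adjusted p = 6.1e-05, log2 span 2.43), and its highest value, 12.5 in pool 3 under hashtag 6, came from 32 cells. Cd83 averaged 2.42, 2.50, 4.23, 6.05, 5.39 and 5.29 (adjusted p = 6.3e-05). For these genes the samples under hashtags 1 and 2 lay at the bottom of the range in each pool, and Egr3 and Tnf under hashtags 1 and 2 never exceeded 1.21 and 2.47.

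Fos and Egr1 did not pass the test between hashtag numbers. Fos averaged 28.7, 38.4, 27.0, 34.4, 23.8 and 25.6 under hashtags 1 to 6 (adjusted p = 0.18), and Egr1 averaged 22.5, 25.9, 20.1, 20.4, 18.5 and 17.8 (adjusted p = 0.75). The summed macrophage markers in microglia-like cells were 1.65 to 3.58 under hashtags 1 and 2 and 1.76 to 20.3 under hashtags 3 to 6, and the summed microglia markers 274 to 323 and 148 to 223. Their part in the differences was not tested. Without pool 1 the calls of Fosl2 and Dusp2 were lost, without pool 2 those of Fosl2, Klf4, Ier5, Dusp2 and Rhob, and without pool 3 those of Klf4 and Ier5. With no filter on low counts 27 members were called, Fos among them (adjusted p = 2.1e-04), and without the pool block 9. Library size scaling called 18, with Fos (adjusted p = 0.038), Fosb, Btg2 and Dnajb1 gained and Fosl2 lost. The share over all genes is not given beside these counts, so they are not a result about the members.

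A single hashed sample had the highest level of 4 of the 6 heat shock genes. In pool 1 under hashtag 2, with 1868 microglia-like cells, Hspa1a was at 8.12, Hspa1b at 4.20, Hsp90aa1 at 9.20 and Dnajb1 at 4.46. Over the other 17 samples Hspa1a ran from 1.55 to 4.83, Hspa1b from 0.506 to 1.76, Hsp90aa1 from 3.65 to 7.61 and Dnajb1 from 2.10 to 4.30, so that Dnajb1 passed them only slightly. Hspa8 at 17.2 and Hspe1 at 3.24 lay within the range of the other samples. The same sample had the lowest Nfkbia, at 9.86, and the lowest Tnf, at 0.853. Its median mitochondrial share over all cells was 1.17%. Its median depth was the lowest of the 18 samples, at 3161 UMIs over all cells and 3177 in microglia-like cells. The medians over samples were 5966 and 5198. The part of depth in these levels was not tested. Under hashtag 2 Hspa1a was at 2.52 in pool 2 and at 4.36 in pool 3, where hashtag 4 was higher at 4.83.

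**Figure D4:**
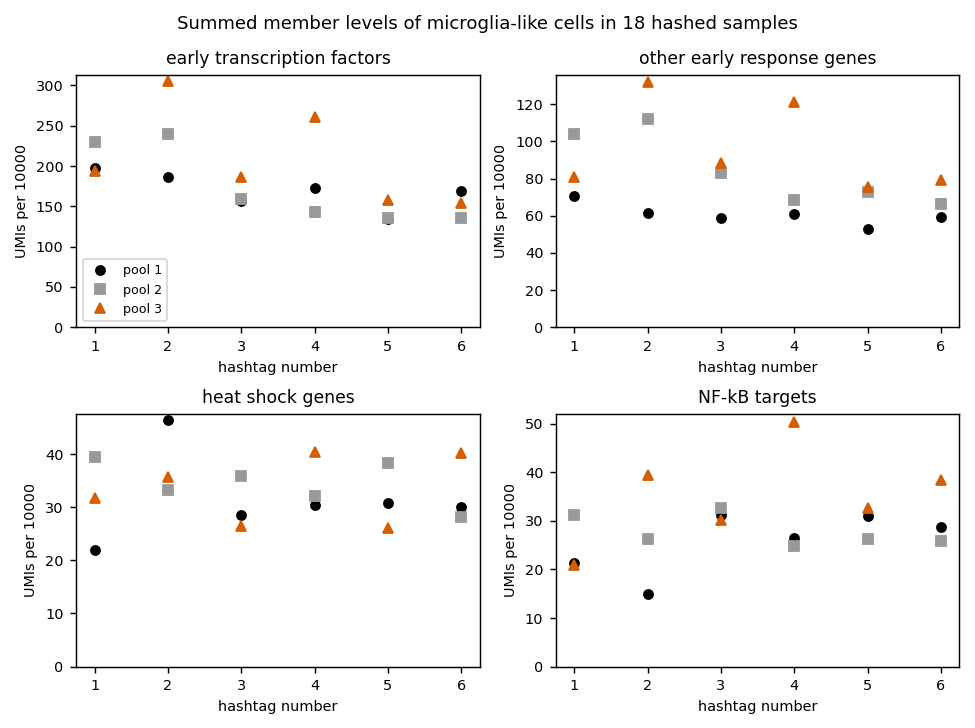
Summed level of each role group in microglia-like cells, in UMIs per 10000, by hashtag number 1 to 6 with a point per pool. The heat shock sum of pool 1 under hashtag 2 lies at 46.4, the highest of the 18 samples, and the NF-kB sum of the same sample at 15 is the lowest.

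Levels in microglia-like cells also differed between the pools, each of which was a separate capture and library. With hashtag number as a block 19 of 36 members differed, against 39.6% of genes tested. The samples of a pool share its capture and library, so p here measures the spread of hashed samples within pools only. Zfp36, which degrades mRNAs of inflammatory genes, had the smallest adjusted p (1.8e-07). It was at 4.50, 4.80 and 5.75 as lowest, median and highest in the 6 samples of pool 1, 11.9, 14.8 and 20.5 in pool 2, and 11, 16.2 and 24.8 in pool 3, so that pool 1 did not overlap the others. Tnfaip3 had medians of 0.556, 1.32 and 1.6 in pools 1 to 3 (adjusted p = 2.6e-06), Nr4a1 0.940, 2.41 and 2.41 (adjusted p = 2.9e-06) and Egr1 13.3, 19.8 and 25.7 (adjusted p = 3.2e-05). Pool 1 was the lowest of the 3 for each.

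Of the early transcription factors 10 of 15 differed between pools, of the other early response genes 6 of 10, of the heat shock genes 1 of 6, which was Hspe1, and of the NF-kB targets 2 of 5. These shares were not tested against each other. Fos, with medians of 27.0, 26.4 and 30, did not pass (adjusted p = 0.19), but was called under library size scaling (adjusted p = 0.043) and with no filter on low counts (adjusted p = 0.034). Library size scaling also called Egr2 (adjusted p = 0.011) and Klf4 (adjusted p = 0.027). The file header of pool 1 names another software version (3.1.0) than those of pools 2 and 3 (4.0.0). Pool 1 also lists 31053 genes, against 32285 in pools 2 and 3. Neither difference can be told apart from the pool itself. Without pool 1, 29 genes in all were called between pools 2 and 3, and none was a member, although 7 members had an unadjusted p under 0.05 in edgeR's quasi-likelihood test. DESeq2 on all 3 pools called 19 members. Without pool 2 the calls of Jun and Jund were lost, and without pool 3 those of Junb and Dusp1. Without the block 11 members were called.

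Microglia-like cells with much TMEM119 protein relative to their other tagged surface proteins had lower levels of most members than cells of the same samples with little. TMEM119 is a membrane protein of settled microglia. Its tag was taken as the log count minus the mean log count of all antibody tags of the cell, hashtags left out. The cells in the highest 25% of this measure were set against the lowest 25% in 16 hashed samples. Of the 36 members 27 fell, 2 rose and 7 did not pass, against 21.2% lower and 19.9% higher among the 8807 genes tested. The median log2 fold change was -0.56 for members and 0.03 for all genes.

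All 5 NF-kB targets fell. Tnf was lowest at 0.223, median 1.58 and highest at 3.64 in TMEM119-high cells, against 1.32, 5.65 and 10.4 in TMEM119-low cells, with a log2 fold change of -2.01 ± 0.17 (adjusted p = 1.0e-10). Cd83 was lowest at 0.858, median 1.99 and highest at 5.76 in TMEM119-high cells, against 2.39, 6.50 and 9.66 in TMEM119-low cells, with -1.66 ± 0.09 (adjusted p = 7.3e-14). Both were lower in 16 of 16 samples after TMM scaling although the ranges of the groups overlapped, and on the unscaled levels Tnf was higher in 1 of 16. Nfkbiz had -1.19 ± 0.12 (adjusted p = 5.2e-09), Tnfaip3 -0.89 and Nfkbia -0.74, with Nfkbia at 4.78, 11.2 and 34.8 in TMEM119-high cells and 10.4, 17.5 and 29.2 in TMEM119-low cells.

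Early transcription factors fell in 11 of 15, led by Maff at -2.45 ± 0.17 (adjusted p = 3.8e-12), Egr3 at -1.53 ± 0.17 (adjusted p = 3.1e-08) and Fosl2 at -1.14 ± 0.14 (adjusted p = 1.0e-07). Nr4a1, Egr2, Atf3 and Klf2 fell with -1.14, -1.09, -1.06 and -0.74, and Egr1, Klf6 and Junb with -0.43, -0.40 and -0.39. Maff was not detected in the lowest sample, with a median of 0.0683 and a highest level of 0.176 in TMEM119-high cells, against 0.116, 0.350 and 0.771 in TMEM119-low cells, and was lower in 16 of 16 samples. Fos was lowest at 12.2, median 22.1 and highest at 61.8 in TMEM119-high cells, against 15.3, 28.8 and 45.5 in TMEM119-low cells, and had -0.51. Jun, Jund, Fosb and Klf4 had 0.26, 0.13, 0.06 and 0.22 and did not pass.

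Of the other early response genes 7 of 10 fell. Rcan1 had -1.82 ± 0.19 (adjusted p = 4.0e-09), Ier3 -1.56 ± 0.10 (adjusted p = 3.9e-13) and Dusp2 -1.47 ± 0.18 (adjusted p = 1.1e-07). Rcan1 was lowest at 0.279, median 0.418 and highest at 0.785 in TMEM119-high cells, against 0.299, 1.17 and 3.40 in TMEM119-low cells. Ier2, Socs3, Dusp1 and Zfp36 fell with -0.97, -0.57, -0.42 and -0.30, and Ier5 and Btg2 did not pass. Rhob went the other way and rose by 0.31 (adjusted p = 0.023), with 12.4, 17 and 26.9 in TMEM119-high cells against 7.98, 10.5 and 27.5 in TMEM119-low cells.

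Of the heat shock genes 4 of 6 fell. Hspe1 had -0.84 ± 0.11 (adjusted p = 3.1e-07), Dnajb1 -0.56 ± 0.16 (adjusted p = 0.0053) and Hspa8 -0.54 ± 0.06 (adjusted p = 2.4e-08), and Hsp90aa1 fell by 0.42. Hspa8 was lowest at 9.39, median 13.6 and highest at 19.5 in TMEM119-high cells, against 13, 18.2 and 21.9 in TMEM119-low cells. Hspa1b rose by 0.43 while Hspa1a had -0.01. This difference between them is uncertain, because reads from either copy may be split or dropped in counting, which was not tested.

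The gates differed in other measures too. The median cell had 4208 UMIs in TMEM119-high and 6538 in TMEM119-low gates, and a mitochondrial share of 2.06% and 2.79% (medians over samples). The summed macrophage markers were 1.10 to 2.70 in TMEM119-high and 1.65 to 47.5 in TMEM119-low gates, lower in the high gate in 15 of 16 samples, and the monocyte markers 0.579 to 1.95 and 0.449 to 3.18. The 12 microglia markers, Tmem119 among them, summed to 218 to 353 and 104 to 288, lower in the high gate in 0 of 16 samples. The border macrophage markers summed to 0.877 to 2.91 and 0.561 to 2.17, lower in the high gate in 1 of 16. Their part in the result was not tested. Library size scaling moved the median of all genes by 0.19 and gave 3489 higher and 1134 lower calls in place of 1756 and 1866. Under it Jun (0.45), Jund (0.32) and Klf4 (0.41) were called higher, and Junb, Egr1, Dusp1, Zfp36 and Dnajb1 were no longer called. Without pool 2 the calls of Junb, Egr1, Dusp1, Zfp36, Rhob and Dnajb1 were lost, and without pool 1 those of Zfp36 and Hspa1b. With gates on the raw tag count Maff had -1.54, Fosb (-0.35), Klf4 (-0.33), Ier5 (-0.39) and Btg2 (-0.48) were called lower, and the rise of Rhob was no longer called. Without the replicate block Fos, Junb, Egr1, Dusp1, Zfp36, Rhob and Hspa1b were no longer called, and with HTODemux Hspa1b was not.

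The 5 microglia-like clusters, formed without the members, held different mixtures of them. Cluster 2, with 2331 cells, had the highest summed early transcription factors, at 318 over the 3 pools, with Fos at 49.4, Jun at 79.6, Egr1 at 39.4 and Dnajb1 at 7.57. Cluster 4, with 1906 cells, had a sum of 153 but the highest Egr3 (3.13), Tnf (7.85), Cd83 (7.38), Rcan1 (2.16) and Maff (0.457). Jun was only 23.7 there. Clusters 1, 6 and 3 had sums of 235, 109 and 81.9. These levels describe clusters of the same cells and were not tested.

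From cell to cell the members also varied differently. In cells thinned to 2000 UMIs, the 10th to 90th percentile of the summed member level was 85 to 136 at the low end and 225 to 340 at the high end over samples of infiltrating cells, with sample medians from 145 to 210. In microglia-like cells the low end was 50 to 259 and the high end 490 to 761, with sample medians from 200 to 530. Thinning left out 148 infiltrating and 316 microglia-like cells as too shallow.

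The variance of a gene over its mean among cells, which is 1 for counting error alone, was highest for the AP-1 members Jun and Fos among the 36 members in microglia-like cells thinned to 2000 UMIs. For Jun the median over samples was 2.01 in infiltrating and 6.48 in microglia-like cells, at mean counts of 0.987 and 8.83 UMIs. For Fos, whose means were closer at 4.51 and 6.03 UMIs, it was 2.66 and 5.98. Ier3 went the other way, with 4.69 and 3.01 at means of 3.92 and 1.02 UMIs. For Hspa8, with means of 4.62 and 3.16 UMIs, it was 1.82 and 1.72.

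Members of different roles varied together across microglia-like cells. The correlation of the summed early transcription factors with the summed other early response genes had a median of 0.39 over 12 infiltrating samples (0.27 to 0.66) and 0.80 over 18 microglia-like samples (0.65 to 0.84). With the NF-kB targets it was 0.18 and 0.54, and with the heat shock genes 0.078 and 0.38. Fos and Egr1 had 0.14 and 0.52, whereas Fos and Hspa1a had 0.056 and 0.083. The cells of a sample share a library and a depth of 2000 UMIs, and low counts such as those of Hspa1a limit the correlation, so these are descriptions.

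**Figure D5:**
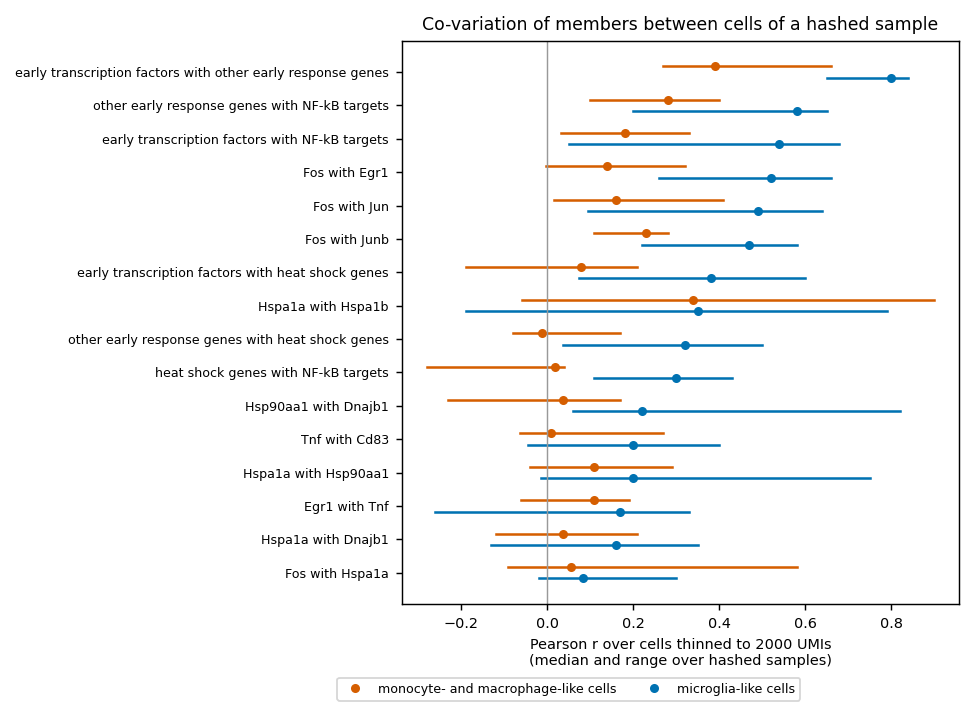
Pearson correlation across cells, thinned to 2000 UMIs, between the summed levels of role groups and between selected members, with the median as a point and the range over hashed samples as a line for infiltrating (monocyte- and macrophage-like, 12 samples) and microglia-like cells (18 samples). Early transcription factors and other early response genes lie between 0.27 and 0.66 in infiltrating cells and between 0.65 and 0.84 in microglia-like cells.

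Across the 18 samples of microglia-like cells, centred within pools, the members whose log2 level was most like that of Fos were Dusp1 (Pearson r = 0.92), Fosb (0.92) and Btg2 (0.91), ranks 1 to 3 of 10394 genes. The 5 genes outside the set most like Fos were Gm26532 (0.87), Zmym2 (0.86), Uspl1 (0.86), Kmt2b (0.85) and Bloc1s5 (0.84). Tnf lay at the other end of the members with -0.45, Hspe1 had -0.35 and Egr3 -0.32. The samples share 3 pools and differ in depth, so the correlations are given without a p.

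Related genes outside the set, which were not kept out of the clustering, did not all move with it. In infiltrating over microglia-like cells 36.1% of all genes tested rose and 40.0% fell. Of 27 further early response genes tested 13 rose and 8 fell there, with Bhlhe40 at 3.99, Nr4a2 at 3.44, Gem at -4.66 and Ppp1r15a at -1.28. Of 19 further NF-kB genes 13 rose and 3 fell, with the signalling adaptor Traf1 at 5.33 and the cytokine Il1b at 3.53, against Icam1 at -1.50 and Nfkbid at -1.22. Of 18 further heat shock genes 10 rose and 5 fell, with the cochaperones Stip1 and Cacybp at 1.0 each, Hspb1 at -3.93 and Dnajb4 at -2.27. Of 12 genes linked to the dissociation of microglia 2 rose, Cxcl2 (3.87) and Rgs1 (0.61), and 9 fell, including Csf1 (-2.98) and Il1a (-2.37).

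In macrophage-like over monocyte-like cells 28.5% of all genes tested rose and 26.7% fell. All 19 further NF-kB genes fell there, with Traf1 at -2.29 and Bcl3 at -1.44. Among 27 early response genes 19 fell and 3 rose, with Myc at 1.11 and Ier5l at -1.08. Of 17 heat shock genes 8 rose and 3 fell, led by the mitochondrial chaperones Hspd1 (0.71) and Hspa9 (0.69), and of 11 dissociation genes 3 rose and 3 fell, with Rgs1 at 1.35 and Gpr84 at -0.93. In TMEM119-high over TMEM119-low cells 18 of 26 early response genes fell and 2 rose, with Bhlhe40 at -2.93 and Dusp6 at 0.49. Among all genes tested between these gates 21.2% fell and 19.9% rose. In the same gates 12 of 18 NF-kB genes fell and 1 rose, with Il1b at -2.78 and Ikbkb at 0.22, while 10 of 18 heat shock genes and 7 of 11 dissociation genes fell, with Hspd1 at -0.85 and Ccl2 at -1.97. Between hashtag numbers 14 of 27, 7 of 18, 2 of 18 and 7 of 12 genes of the early response, NF-kB, heat shock and dissociation lists differed, where 21.3% of all genes tested did. Between pools 18 of 27, 7 of 18, 6 of 18 and 5 of 12 differed, where 39.6% of all genes tested did, so that the last 3 shares lay near the background.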

How the data were processed

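The authors deposited filtered count matrices of UMIs for genes and antibody tags, made per the submitters' processing notes with bcl2fastq 2.20.0.422, Cell Ranger 3.0.1 and 4.0.0 and Seurat 3 on mm10; the software version is 3.1.0 in the header of pool 1 and 4.0.0 in the other headers. Filters on barcodes were a minimum of 200 genes, a minimum of 500 UMIs and a maximum of 10% mitochondrial UMIs. A hashtag was assigned from at least 80% of at least 10 hashtag UMIs, which leaves out barcodes with a mixture of hashtags. Single barcodes were not removed by a doublet score, but 2 clusters (900 and 94 cells) in which over 50% of cells had a Scrublet score above 0.2 were left unnamed and so entered no class. Cells were clustered in scanpy 1.11.5 (2000 variable genes without the members, 30 components, 15 neighbours, resolution 1). Counts were summed per hashed sample and class with at least 20 cells, filtered with filterByExpr, scaled by TMM and tested with edgeR 4.0.16 (quasi-likelihood test, Benjamini-Hochberg adjusted p under 0.05 over all genes), two-sided, with the hashed sample as a block, or the other of hashtag and pool. Arms of 1 hashed sample come from the same cells in suspension, which is what pairs them. DESeq2 1.42.0 was an alternative. In counts simulated for the infiltrating comparison (10553 genes), 90% of genes changed 2-fold and 78% of genes changed 1.5-fold were recovered. For hashtag number (10206 genes) it was 90% and 54%, for pool (10242 genes) 93% and 73%, for macrophage-like over monocyte-like cells (9694 genes) 95% and 81%, and for the TMEM119 gates (8334 genes) 92% and 75%. False calls made up 3.47% to 5.68% of the calls. The simulated counts had no pool or sample effects and only 100 changed genes per fold size, as many up as down. The shares therefore hold for a simpler setting than the data. For each role group, fold changes are given for the members, with SE and p for up to 3 with the largest change; other SEs and sample ranges were chosen after the values were seen. The members and lists were chosen with earlier results of these data known. Cells per summed sample ranged from 26 to 1107 (infiltrating) and 32 to 983 (microglia-like).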

Additional observations from a re-analysis of the deposited data

Results flagged for a closer look

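The difference of Dusp2 between infiltrating and microglia-like cells depended on the pool (adjusted p = 0.041 for the interaction in edgeR's quasi-likelihood test). Its log2 fold change was 0.94 in pool 1, -0.02 in pool 2 and -0.41 in pool 3. It was 1 of 7 genes among the 11201 tested (0.0625%) for which this held. Junb had 0.65, 0.16 and -0.30 (adjusted p = 0.11), and Btg2 0.23, -0.31 and -0.83 (adjusted p = 0.11). Egr1 had -3.03, -3.27 and -3.76, and Dnajb1 -1.54, -1.56 and -1.53.

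Barcodes without a majority hashtag, which entered no comparison, also carried the members. Their summed member level was 241 UMIs per 10000 in pool 1 (2860 barcodes), 274 in pool 2 (1337 barcodes) and 232 in pool 3 (9872 barcodes). In barcodes with a majority hashtag it was 216, 220 and 246.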

How the results depend on the processing

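Over the single members, under all alternatives, 2082 of 2304 values kept their direction and their side of the threshold. Of the rest 119 lost their call, 63 gained a call and 40 changed sign. The tests of hashtag number and pool have no direction, so their values could only gain or lose a call. Without the replicate block that pairs arms or samples, 3629 genes were called for macrophage-like over monocyte-like cells (5511 with it), 790 for hashtag number in microglia-like cells (2218 with it) and 2712 for pool in microglia-like cells (4120 with it). It left 6868 calls in infiltrating over microglia-like cells (8520 with it) and 2417 in TMEM119-high over TMEM119-low microglia-like cells (3622 with it). Leaving out a pool gave 700 to 2267 calls between hashtag numbers, 29 to 4463 between pools and 1902 to 3539 between TMEM119 gates. Co-variation of early transcription factors with other early response genes in microglia-like cells was 0.70 at 1000 UMIs and 0.80 at 2000 UMIs. Of the values that changed sign, that of Klf4 in infiltrating over microglia-like cells had been called: it was -0.08 with counts summed per pool and 0.51 in the reported fit. The cause was not tested.

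The other sign changes were of values that did not pass the test in the reported fit, and some were called with the other sign, such as Socs3 under library size scaling, Dusp2 and Socs3 without pool 1, and Fosb and Klf4 with raw gates. In infiltrating over microglia-like cells they were Junb -0.17, Dusp2 -0.14 and Socs3 -0.31 under library size scaling, Fos 0.02 with no filter, 0.01 with HTODemux and 0.02 with at least 50 cells, Hsp90aa1 0.04 with at least 50 cells, and Socs3 -0.02 in DESeq2 and -0.01 without the replicate block. Leaving out a pool gave ranges of -0.17 to 0.39 for Junb, -0.29 to 0.43 for Dusp2, -0.35 to 0.23 for Socs3, -0.25 to 0.13 for Fos, -0.15 to 0.01 for Hsp90aa1 and -0.41 to 0.07 for Tnfaip3. In macrophage-like over monocyte-like cells they were Tnf 0.02 under library size scaling, Hspa1b -0.21 with HTODemux and -0.16 with members used in clustering, and Egr2 -0.01, Hspa1b -0.05 and Hsp90aa1 -0.04 with counts summed per pool. Leaving out a pool there gave -0.09 to 0.22 for Egr1, -0.06 to 0.1 for Egr2, -0.03 to 0.06 for Hsp90aa1, -0.17 to 0.02 for Tnf and -0.1 to 0.29 for Hspa1b. In TMEM119-high over TMEM119-low cells they were Ier5 0.04 and Hspa1a 0.17 under library size scaling, Hspa1a 0.03 with at most 5% mitochondrial UMIs, Fosb -0.03 and Hspa1a 0.01 with at least 50 cells, Hspa1a 0.01 with members used in clustering, and Fosb -0.35, Jun -0.18, Jund -0.22 and Klf4 -0.33 with raw gates. Leaving out a pool there gave -0.36 to 0.29 for Hspa1a and -0.04 to 0.23 for Fosb. Depth limits members near 0.1 UMIs per 10000, such as Egr3 in infiltrating cells, and pool 3, where arms held as few as 26 infiltrating and 32 microglia-like cells.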
